A study of Mus musculus with 20 samples.

Results

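The circadian clock genes described here are Arntl (which encodes BMAL1), Clock, Per1, Per2, Per3, Cry1, Cry2, Nr1d1 and Nr1d2 (which encode REV-ERBα and REV-ERBβ) and Dbp. They were found by their Ensembl gene IDs and make up 10 of the 48440 genes in the deposited table. RNA was sequenced from 3T3-L1 adipocytes, fat cells made in culture from a mouse fibroblast line that the labels give as Swiss mouse. The 20 libraries form 8 groups. A construct for constituent overexpression of FOXK1 (3 libraries) has an empty vector control (3 libraries), and a Foxk1 shRNA (3 libraries) has a scrambled shRNA control (3 libraries). A construct for constituent overexpression of FOXK2 (2 libraries) has its own empty vector control (2 libraries), and a Foxk2 shRNA (2 libraries) its own scrambled shRNA control (2 libraries). All cells were differentiated with insulin (5 µg/ml), dexamethasone (1 µM), troglitazone (10 µM) and isobutyl methylxanthine (0.5 mM), received insulin alone from day 4 and were in growth medium from day 6. The labels give neither the hour nor the day of collection, nor whether the cultures were synchronised, so a changed level and a changed phase of the rhythm cannot be told apart in any result below. They also do not say whether replicates were separate cultures or whether a line was clonal, so p-values measure only the spread between these libraries.

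The mammalian clock is a feedback loop of transcription. BMAL1 and CLOCK pair up and bind E-box sequences in the promoters of the Per, Cry, Nr1d and Dbp genes, the PER and CRY proteins then block that pair, and the REV-ERB receptors repress Arntl and, through intronic sites, Cry1, while the ROR receptors activate at the same sites. DBP activates genes through D-boxes. The loop runs in adipocytes as in most tissues, where it sets the timing of parts of lipid metabolism. Foxk1 and Foxk2 encode forkhead transcription factors.

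Promoter windows from RefSeq, on GRCm38.p6 (the sequence of mm10), show which of these short sequences lie near each start site. A window runs from 250 bases before an annotated start to 50 bases after it, and 9 of the 10 genes matched, with 13 windows, Per2 being the one that did not. Windows of 5 of the genes with such a match (all but Cry2) are printed, with the matches in capitals. They lie at chr7:113207261-113207560 on the plus strand (Arntl), chr11:69098699-69098998 on the plus strand (Per1), chr4:151044616-151044915 on the minus strand (Per3), chr10:85185005-85185304 on the minus strand (Cry1) and chr11:98775328-98775627 on the minus strand (Nr1d1).
Arntl promoter: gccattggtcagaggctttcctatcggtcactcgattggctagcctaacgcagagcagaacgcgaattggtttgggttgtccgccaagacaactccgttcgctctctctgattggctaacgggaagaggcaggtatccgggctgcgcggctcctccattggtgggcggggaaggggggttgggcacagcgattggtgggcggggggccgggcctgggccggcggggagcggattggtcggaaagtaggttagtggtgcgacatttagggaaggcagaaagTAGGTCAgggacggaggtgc
Per1 promoter: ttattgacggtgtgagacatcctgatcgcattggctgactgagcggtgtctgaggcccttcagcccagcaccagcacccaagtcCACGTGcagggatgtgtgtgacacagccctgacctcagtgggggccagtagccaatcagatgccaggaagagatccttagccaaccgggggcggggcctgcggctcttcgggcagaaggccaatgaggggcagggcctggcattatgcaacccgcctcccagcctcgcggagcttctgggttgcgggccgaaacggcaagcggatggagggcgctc
Per3 promoter: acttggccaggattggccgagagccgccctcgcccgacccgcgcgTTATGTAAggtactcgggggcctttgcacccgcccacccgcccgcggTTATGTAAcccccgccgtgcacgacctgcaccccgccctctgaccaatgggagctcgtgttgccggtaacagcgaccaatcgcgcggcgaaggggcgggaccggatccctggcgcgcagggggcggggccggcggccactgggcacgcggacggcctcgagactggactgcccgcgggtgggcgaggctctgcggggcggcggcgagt
Cry1 promoter: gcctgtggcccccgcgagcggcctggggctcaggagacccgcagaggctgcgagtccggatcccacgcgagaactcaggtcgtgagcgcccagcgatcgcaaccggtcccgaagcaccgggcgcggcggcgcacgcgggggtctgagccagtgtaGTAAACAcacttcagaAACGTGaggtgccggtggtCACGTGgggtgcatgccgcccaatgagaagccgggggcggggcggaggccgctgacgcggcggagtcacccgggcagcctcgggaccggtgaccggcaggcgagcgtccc
Nr1d1 promoter: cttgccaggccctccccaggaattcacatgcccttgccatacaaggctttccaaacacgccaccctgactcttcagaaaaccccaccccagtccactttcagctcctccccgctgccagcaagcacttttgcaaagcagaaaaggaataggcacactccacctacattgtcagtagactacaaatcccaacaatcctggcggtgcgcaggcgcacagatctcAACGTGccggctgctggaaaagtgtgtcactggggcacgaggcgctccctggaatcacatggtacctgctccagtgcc
With the start as position 0, the Cry1 window holds the E-box CACGTG at -60, the letters AACGTG at -79 and the forkhead letters GTAAACA at -95. AACGTG is the other strand of the E-box variant CACGTT. Per1 holds CACGTG at -166, Nr1d1 holds AACGTG at -28, Arntl holds the REV-ERB and ROR element TAGGTCA at 30, and Per3 holds the D-box TTATGTAA at -205 and again at -158. Cry2, not printed, holds AACGTG at -166. Both strands of 32851 RefSeq windows of this length were searched in the same way: 7.15% held CACGTG, 4.68% CACGTT, 1.06% a D-box (TTATGTAA or TTACGTAA), 6.45% a receptor element (TAGGTCA or TGGGTCA) and 3.65% GTAAACA. Of the 13 clock gene windows, 2 held CACGTG, 3 CACGTT, 1 a D-box, 1 a receptor element and 1 GTAAACA. The cAMP response element TGACGTCA was in 1.79% of all windows and in 0 of the 13. The windows of Clock, Nr1d2 and Dbp held none of these motifs, nor did the other windows of Arntl and Per1. No 2 of these motifs overlapped in the printed windows. A match describes letters in a window, not binding.

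Levels are in RPKM (reads assigned to a gene, scaled to its length in kilobases and to the reads of the library), as the authors deposited them. All 10 clock genes passed the filter on low values (0.5 RPKM or more in at least 2 libraries), as did 15981 genes in all, on which every test was run. Read numbers recovered from the RPKM put the depth at 16739763 to 20772823 assigned reads in the Foxk1 libraries and 31378224 to 36157008 in the Foxk2 libraries. The lowest read number of a clock gene in any library is 129 (Cry1). The Foxk1 and Foxk2 libraries stand apart on the first principal component (79.5% of the variance), so effects are compared between the sets through their own controls. Where groups or libraries of the whole series are ranked, the RPKM are as deposited, and the order also carries the difference between the sets. In the libraries labelled Foxk1 overexpression, Foxk1 RNA went against the label, at 6.10 RPKM against 7.55 RPKM in the empty vector control (means), while in the other manipulations the targeted RNA moved as labelled: 3.25 against 8.32 RPKM for the Foxk1 shRNA, 19.96 against 13.4 RPKM for FOXK2 overexpression, and 3.27 against 12.9 RPKM for the Foxk2 shRNA. The RNA of the other factor differed as well. Foxk1 was at 6.98 and 7.30 RPKM with FOXK2 overexpression, against 11.6 and 11.6 RPKM in controls. With Foxk2 shRNA it was at 12.8 and 12.6 against 10.7 and 9.79 RPKM. Foxk2 was at 13.5 to 14.1 RPKM in the libraries labelled Foxk1 overexpression, against 10.9 to 11.5 RPKM. With Foxk1 shRNA it was at 8.90 to 10.2 against 10.8 to 11.3 RPKM. No comparison thus changed the RNA of its target alone. All 12 adipocyte markers were detected. Of 6 macrophage markers, Ptprc, Adgre1 and Itgam stayed below 0.1 RPKM in every library, while Csf1r, Cd68 and Cd14 passed the filter. The summed macrophage level was 4.80 to 5.47 RPKM in the libraries labelled Foxk1 overexpression against 6.04 to 6.85 in controls, 6.71 to 7.43 with Foxk1 shRNA against 4.23 to 4.86, 4.73 to 5.16 with FOXK2 overexpression against 6.04 to 6.69, and 6.59 to 7.93 with Foxk2 shRNA against 3.70 to 3.95. Of the 3 tested, Cd14 was called in all 4 comparisons (lower in both overexpressions, higher in both knockdowns), Csf1r was higher in the libraries labelled Foxk1 overexpression and Cd68 higher with Foxk2 shRNA. Of 5 muscle markers, Myod1 and Myog were at 0 in every library, and Actn3, the 1 that passed, was lower in both overexpressions and higher in both knockdowns, at 0.033 to 1.05 RPKM over all libraries. Markers of fibroblasts and preadipocytes moved with each manipulation. Their summed level was 288 to 304 RPKM in the libraries labelled Foxk1 overexpression against 714 to 864 in controls, 2377 to 2490 with Foxk1 shRNA against 1315 to 1415, 261 to 275 with FOXK2 overexpression against 568 to 582, and 1092 to 1120 with Foxk2 shRNA against 386 to 387. Of 11 tested markers, 10 were lower in each overexpression comparison (23.8% of all genes in the libraries labelled Foxk1 overexpression and 22.0% with FOXK2 overexpression), and all 11 were higher in each knockdown (20.4% of all genes with Foxk1 shRNA and 18.0% with Foxk2 shRNA). Summed adipocyte markers were lower than in controls in all 4 comparisons (9224 to 9267 against 13949 to 14295, 10940 to 11538 against 13006 to 13652, 7899 to 7921 against 12173 to 12329, and 11267 to 11573 against 13357 to 13456 RPKM, in the same order), but single markers went both ways: 8 lower and 2 higher, 9 lower and 0 higher, 8 lower and 3 higher, and 5 lower and 1 higher of 12, in that order. Of all genes tested, 23.8%, 15.5%, 22.0% and 15.7% were lower and 24.1%, 20.4%, 23.0% and 18.0% higher, again in that order. These shares stand beside the macrophage and muscle marker calls as well. The part of these marker shifts in the clock gene differences was not tested. In such bulk RNA, fewer cells of one type and less RNA per cell cannot be told apart.

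**Figure D1:**
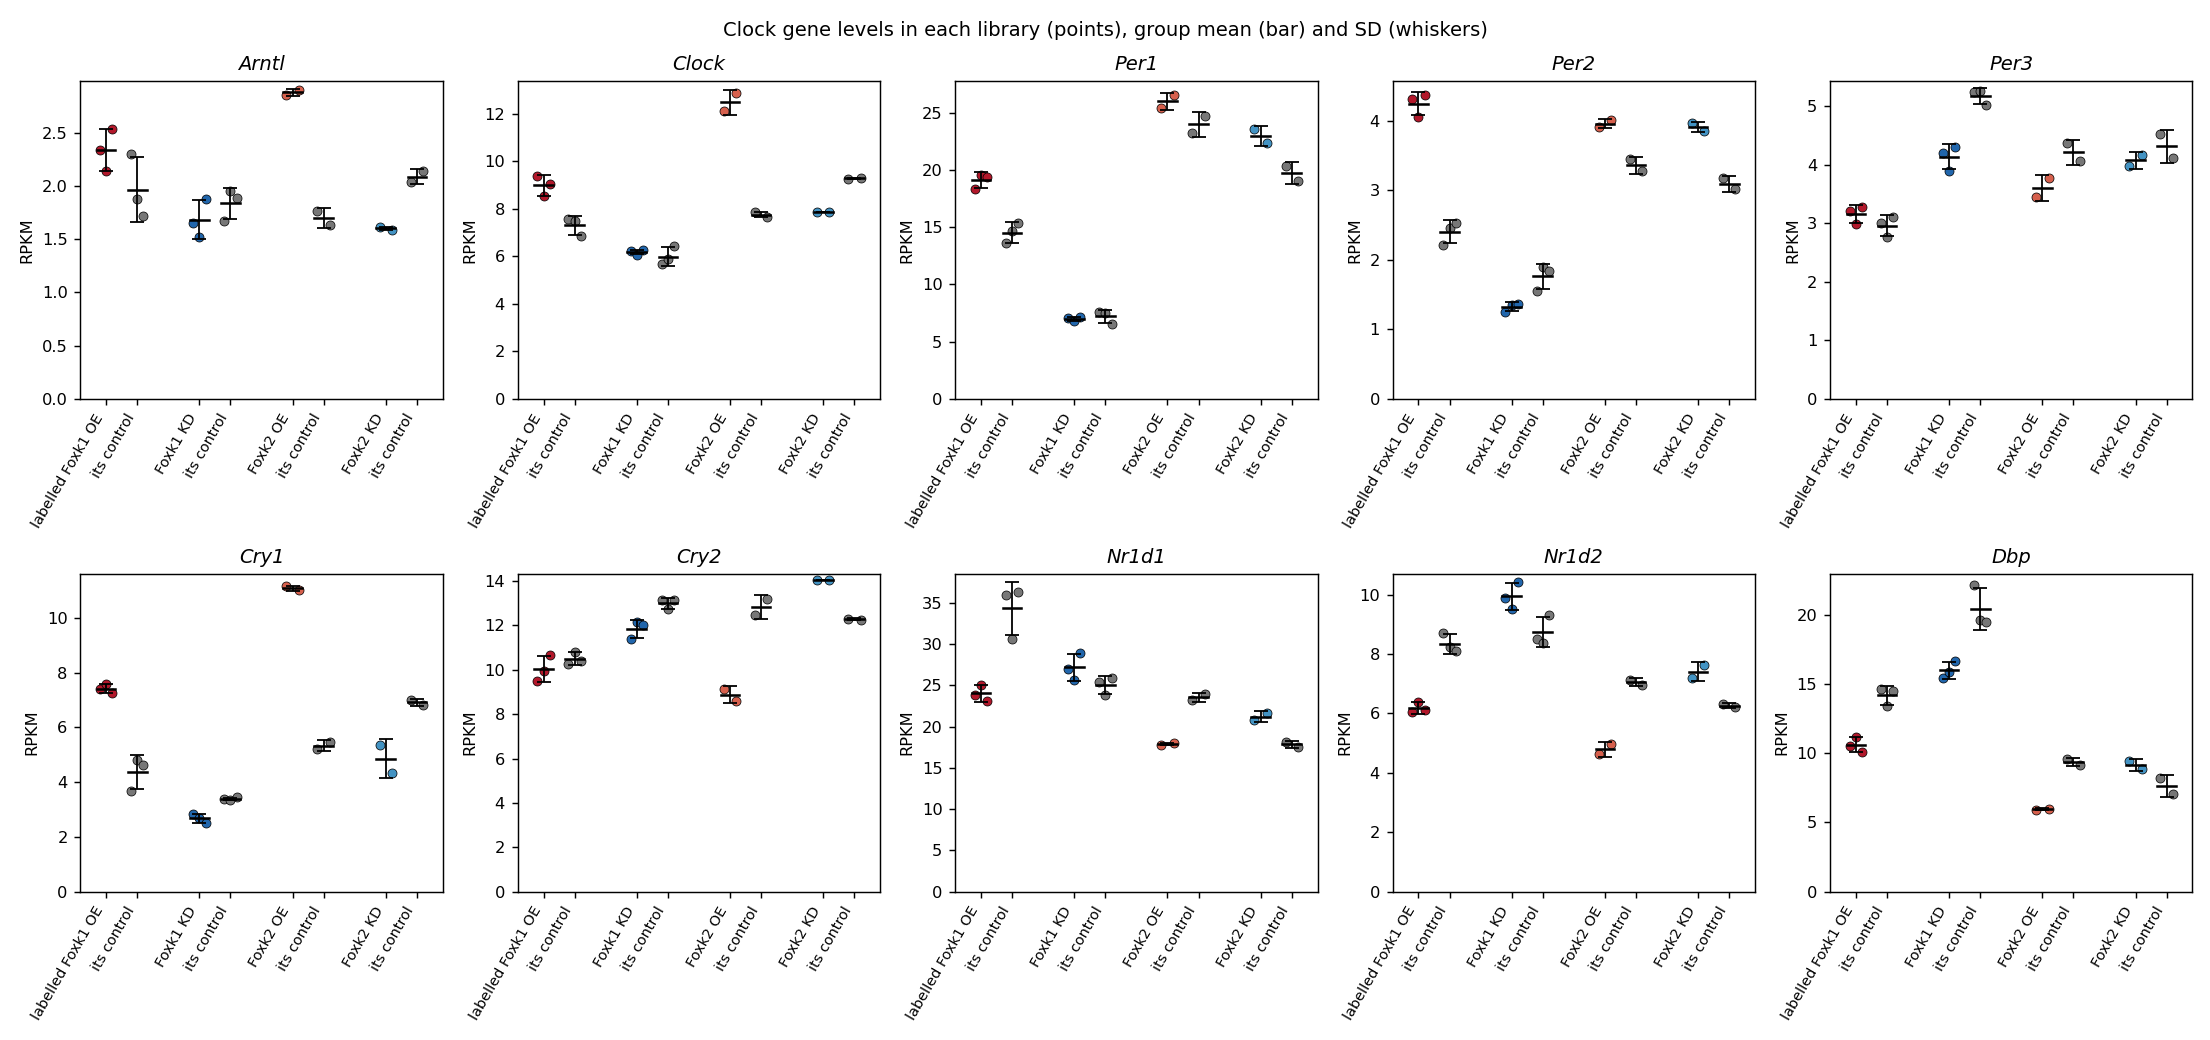
RPKM of the 10 clock genes in each of the 20 libraries (points), with the group mean (bar) and SD (whiskers), each manipulation left of its own control. OE is overexpression, KD is shRNA knockdown, and labelled marks the libraries whose Foxk1 RNA goes against their label. Cry1 and Clock are highest with FOXK2 overexpression, and Per1 differs more between the Foxk1 control groups than in any comparison.

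With FOXK2 overexpression, Arntl, Clock, Per2 and Cry1 were higher and Per3, Cry2, Nr1d1, Nr1d2 and Dbp lower than in the empty vector control. That is 9 of 10 genes with an adjusted p under 0.05 (4 higher, 5 lower), where 45.0% of all genes tested were called (23.0% higher, 22.0% lower). In the libraries labelled Foxk1 overexpression, 7 of 10 were called (Clock, Per1, Per2 and Cry1 higher, Nr1d1, Nr1d2 and Dbp lower), against 47.8% of all genes (24.1% higher, 23.8% lower). With Foxk2 shRNA 9 of 10 were called, against 33.7% of all genes (18.0% higher, 15.7% lower). Per1, Per2, Cry2, Nr1d1, Nr1d2 and Dbp were higher and Arntl, Clock and Cry1 lower. With Foxk1 shRNA 6 of 10 were called, against 35.9% (20.4% higher, 15.5% lower). Nr1d2 was higher and Per2, Per3, Cry1, Cry2 and Dbp were lower. The median log2 fold change of the 10 genes was 0.14 in the libraries labelled Foxk1 overexpression, -0.11 with Foxk1 shRNA, -0.042 with FOXK2 overexpression and 0.20 with Foxk2 shRNA, where the median of all genes tested lay between 0.00 and 0.017. The Foxk2 shRNA count is the least firm: it was 2 without scrambled control replicate 2 and 5 once a fitted dependence on gene length and GC content (the length and GC trend) was taken out. The ranges of the libraries did not overlap those of the controls for 7 of 10 clock genes in the libraries labelled Foxk1 overexpression (52.3% of all genes), 6 with Foxk1 shRNA (44.2%), 10 with FOXK2 overexpression (70.3%) and 9 with Foxk2 shRNA (67.2%).

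**Figure D2:**
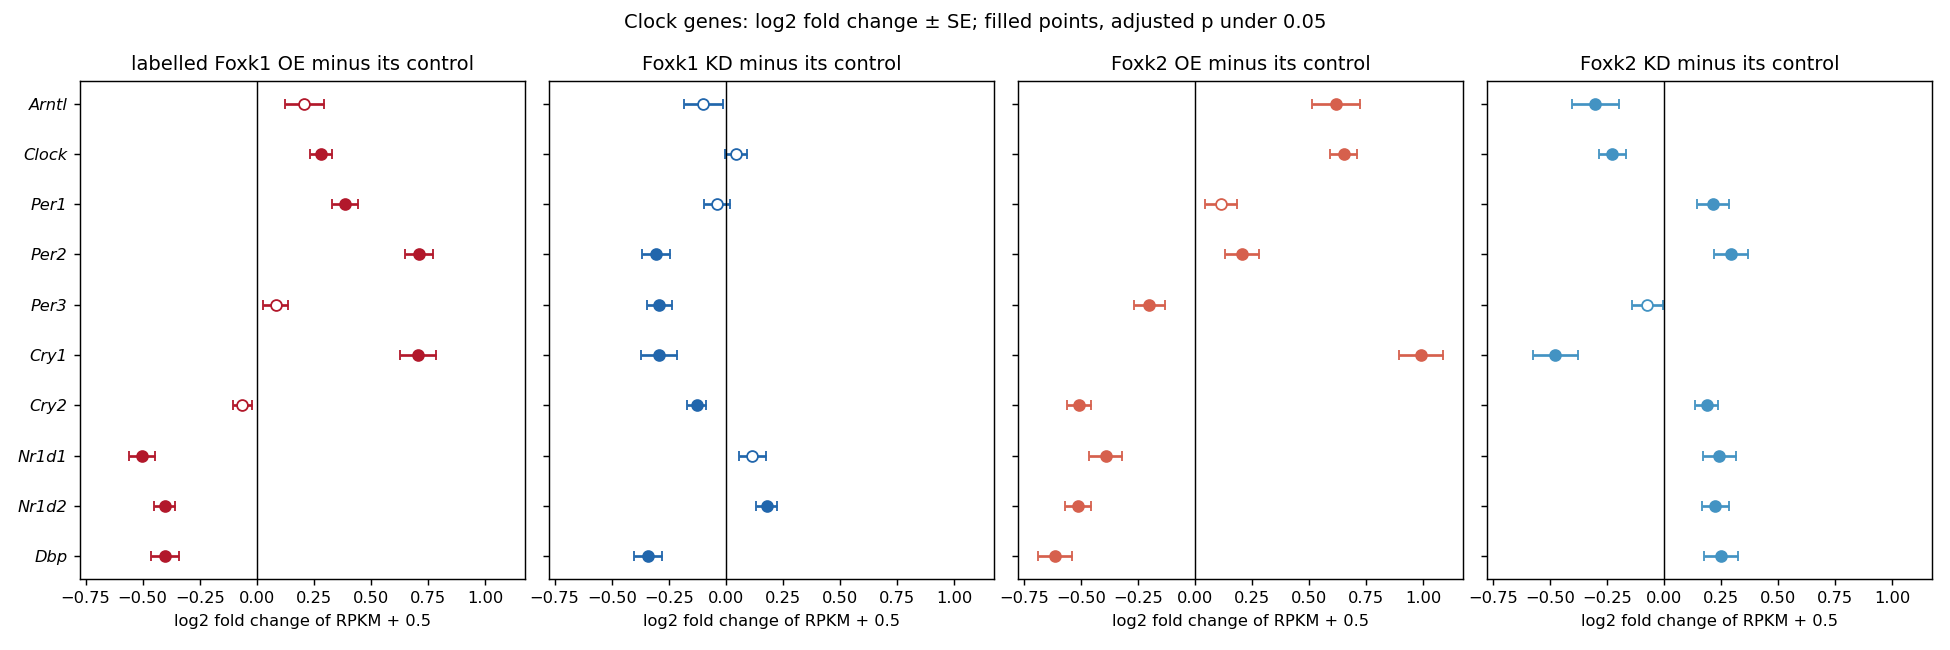
Log2 fold change of RPKM + 0.5 for each clock gene in the 4 comparisons, each manipulation minus its own control, with its standard error. Filled points have an adjusted p under 0.05. With FOXK2 overexpression the values run from -0.61 (Dbp) to 0.99 (Cry1), and with Foxk2 shRNA they lie between -0.48 (Cry1) and 0.30 (Per2).

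Arntl, a member of the activating pair, changed most with FOXK2 overexpression. It had 2.85 and 2.91 RPKM there, against 1.77 and 1.64 RPKM in the empty vector libraries, or 0.62 higher on the log2 scale (SE 0.10, adjusted p = 0.00016; later values after ± are SE too). Both overexpressing libraries lie above every other library of the series. It had, with Foxk2 shRNA, 1.61 and 1.59 RPKM, against 2.04 and 2.14 RPKM with scrambled shRNA (-0.30 ± 0.10, adjusted p = 0.0374). That call was lost without any 1 of the 4 libraries (adjusted p between 0.0852 and 0.168) and with a replicate block. Arntl had, in the libraries labelled Foxk1 overexpression, 2.33, 2.14 and 2.54 RPKM, against 2.30, 1.88 and 1.71 RPKM in controls, and the ranges overlapped (0.21 ± 0.085, adjusted p = 0.0578). Without control replicate 1, whose value is the highest of its group, the difference was 0.30 and was called (adjusted p = 0.00684), as it was without labelled replicate 2 (0.26, adjusted p = 0.0388). With Foxk1 shRNA it had 1.65, 1.52 and 1.88 RPKM against 1.67, 1.95 and 1.89 RPKM, overlapping groups with a difference of -0.10 ± 0.085 (adjusted p = 0.407).

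Clock, the partner of Arntl, moved with it in the Foxk2 set. With FOXK2 overexpression it had 12.1 and 12.9 RPKM, against 7.85 and 7.68 RPKM in controls (0.65 ± 0.059, adjusted p = 2.62e-07), with no overlap. With Foxk2 shRNA it had 7.87 and 7.87 RPKM, against 9.27 and 9.30 RPKM (-0.23 ± 0.059, adjusted p = 0.00735). It was also higher in the libraries labelled Foxk1 overexpression, at 9.40, 8.54 and 9.04 RPKM against 7.57, 7.51 and 6.85 RPKM (0.28 ± 0.048, adjusted p = 0.000169). With Foxk1 shRNA the groups overlapped, at 6.21, 6.08 and 6.26 RPKM against 5.66, 5.89 and 6.43 RPKM (0.04 ± 0.048, adjusted p = 0.532). Ordered by mean, Clock ran from 5.99 RPKM (Foxk1 scrambled controls) to 12.5 RPKM (FOXK2 overexpression), and 2 of its 7 pairs of neighbouring groups overlapped, against 5 of 7 for Arntl.

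Per1 and Per2, rhythmic repressors that also respond to hormones, were higher in the libraries labelled Foxk1 overexpression. Per1 had 18.4, 19.6 and 19.4 RPKM there, against 13.6, 14.6 and 15.4 RPKM in controls (0.39 ± 0.057, adjusted p = 4.17e-05). Per2 had 4.32, 4.05 and 4.36 RPKM against 2.21, 2.46 and 2.53 RPKM (0.71 ± 0.061, adjusted p = 1.22e-07), the highest group mean of Per2 in the series. Neither gene overlapped its controls. With Foxk1 shRNA Per2 was lower, at 1.25, 1.36 and 1.37 RPKM against 1.55, 1.89 and 1.84 RPKM (-0.31 ± 0.061, adjusted p = 0.000954). Per1 was at 7.05, 6.79 and 7.13 RPKM against 7.59, 7.51 and 6.50 RPKM, within the spread of its controls (-0.04 ± 0.057, adjusted p = 0.658). In the Foxk2 set Per2 was called higher in both directions of manipulation. It had 3.91 and 4.00 RPKM with FOXK2 overexpression against 3.45 and 3.27 RPKM (0.21 ± 0.074, adjusted p = 0.0326), and 3.96 and 3.86 RPKM with Foxk2 shRNA against 3.18 and 3.01 RPKM (0.30 ± 0.074, adjusted p = 0.00585). The first call was lost without a filter on low values and without any 1 of its 4 libraries (adjusted p between 0.0567 and 0.169), and the second without scrambled control replicate 2 (0.26, adjusted p = 0.0573) and with the length and GC trend removed (0.16). Per1 had 25.5 and 26.5 RPKM with FOXK2 overexpression against 23.2 and 24.8 RPKM (0.11 ± 0.069, adjusted p = 0.207; 0.35 and called with the trend removed). With Foxk2 shRNA it had 23.6 and 22.4 RPKM against 20.4 and 19.0 RPKM (0.22 ± 0.069, adjusted p = 0.0249). That call was lost without scrambled control replicate 2 (0.17), without shRNA replicate 1 (0.18), with median-ratio scaling (0.18) and with the trend removed (0.027).

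Per3, whose window holds the 2 D-boxes, was called lower with Foxk1 shRNA, as Per2 was, and lower with FOXK2 overexpression, where Per2 was higher. With Foxk1 shRNA it had 4.20, 3.89 and 4.30 RPKM, against 5.24, 5.25 and 5.02 RPKM with scrambled shRNA (-0.29 ± 0.055, adjusted p = 0.00067), with no overlap. With FOXK2 overexpression it had 3.44 and 3.76 RPKM against 4.36 and 4.06 RPKM (-0.20 ± 0.068, adjusted p = 0.0252). That call was lost without overexpression replicate 1 (-0.14), without empty vector replicate 1 (-0.15), with quantile normalization (-0.15), in a fit of the Foxk2 libraries alone and with the trend removed (-0.084). The groups overlapped in the libraries labelled Foxk1 overexpression, at 3.21, 2.99 and 3.27 RPKM against 3.01, 2.76 and 3.10 RPKM (0.08 ± 0.055, adjusted p = 0.247; 0.15 and called with quantile normalization or the trend removed). They also overlapped with Foxk2 shRNA, at 3.97 and 4.17 RPKM against 4.52 and 4.11 RPKM (-0.07 ± 0.068, adjusted p = 0.473; -0.22 and called with the trend removed).

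Cry1, the first cryptochrome, was the clock gene with the highest fold change, and it was called in all 4 comparisons. With FOXK2 overexpression it had 11.2 and 11.0 RPKM, against 5.19 and 5.48 RPKM in controls, a 2.08-fold ratio of means (log2 fold change 0.99 ± 0.097, adjusted p = 6.47e-07). The libraries labelled Foxk1 overexpression had 7.41, 7.59 and 7.25 RPKM against 3.68, 4.83 and 4.63 RPKM (0.71 ± 0.079, adjusted p = 2.55e-06). Both knockdowns lay below their controls. With Foxk1 shRNA it had 2.83, 2.68 and 2.50 RPKM against 3.37, 3.33 and 3.44 RPKM (-0.29 ± 0.079, adjusted p = 0.00901). Foxk2 shRNA libraries had 5.36 and 4.34 RPKM against 6.99 and 6.83 RPKM (-0.48 ± 0.097, adjusted p = 0.00127). None of these groups overlapped its controls, and the 4 Cry1 calls were kept under every alternative run.

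Cry2, the second cryptochrome, moved opposite to Cry1 in the Foxk2 set. With FOXK2 overexpression it had 9.14 and 8.62 RPKM, against 12.5 and 13.2 RPKM in controls (-0.51 ± 0.051, adjusted p = 8.4e-07), the lowest group of the series. Foxk2 shRNA libraries had 14.0 and 14.1 RPKM, against 12.3 and 12.3 RPKM (0.19 ± 0.051, adjusted p = 0.00996), the highest group. The second call was lost without scrambled control replicate 2 (0.18, adjusted p = 0.0559) and with the length and GC trend removed (0.027). With Foxk1 shRNA it had 11.4, 12.1 and 12.0 RPKM against 13.1, 12.7 and 13.1 RPKM (-0.13 ± 0.042, adjusted p = 0.025). That call was lost without shRNA replicate 1 (-0.10), without scrambled replicate 1 (-0.12) and without scrambled replicate 3 (-0.12). The groups overlapped in the libraries labelled Foxk1 overexpression, at 9.48, 9.95 and 10.7 RPKM against 10.2, 10.8 and 10.4 RPKM (-0.06 ± 0.042, adjusted p = 0.241), and the difference was -0.11 (adjusted p = 0.0494) without labelled replicate 3.

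The REV-ERB genes were lower in both overexpression comparisons. In the libraries labelled Foxk1 overexpression Nr1d1 had 23.8, 25.1 and 23.2 RPKM, against 36.0, 30.7 and 36.4 RPKM in controls (-0.50 ± 0.059, adjusted p = 3.98e-06). Nr1d2 had 6.05, 6.40 and 6.10 RPKM there, against 8.72, 8.23 and 8.09 RPKM (-0.40 ± 0.047, adjusted p = 3.99e-06). With FOXK2 overexpression Nr1d1 had 17.8 and 18.0 RPKM against 23.2 and 24.0 RPKM (-0.39 ± 0.072, adjusted p = 0.000362). All these groups lay wholly below their controls, as did Nr1d2 with FOXK2 overexpression, at 4.62 and 4.97 RPKM against 7.14 and 6.95 RPKM (-0.51 ± 0.058, adjusted p = 2.93e-06). These 4 calls were kept under every alternative run. With Foxk2 shRNA both were higher. Nr1d1 had 20.7 and 21.7 RPKM there against 18.2 and 17.6 RPKM (0.24 ± 0.072, adjusted p = 0.0169), and Nr1d2 had 7.18 and 7.63 RPKM against 6.31 and 6.20 RPKM (0.22 ± 0.058, adjusted p = 0.00687). Both calls were lost without scrambled control replicate 2 (0.22 for Nr1d1, 0.21 for Nr1d2) and without shRNA replicate 2 (0.21 and 0.18, in that order), and that of Nr1d1 with the length and GC trend removed (0.13). With Foxk1 shRNA Nr1d2 had 9.89, 9.51 and 10.4 RPKM against 8.50, 8.38 and 9.30 RPKM (0.18 ± 0.047, adjusted p = 0.008; 0.098 and not called with the trend removed). Nr1d1 had 27.0, 25.7 and 28.9 RPKM against 25.4, 23.8 and 25.9 RPKM, overlapping groups (0.12 ± 0.059, adjusted p = 0.147).

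Dbp, a strongly rhythmic output of BMAL1 and CLOCK, was lower in both overexpression comparisons and with Foxk1 shRNA. With FOXK2 overexpression it had 5.93 and 6.00 RPKM, against 9.57 and 9.19 RPKM in controls (-0.61 ± 0.074, adjusted p = 5.75e-06). It had, in the libraries labelled Foxk1 overexpression, 10.6, 11.2 and 10.1 RPKM against 14.7, 13.4 and 14.5 RPKM (-0.40 ± 0.060, adjusted p = 5.24e-05). With Foxk1 shRNA it had 15.5, 15.9 and 16.7 RPKM against 22.2, 19.6 and 19.5 RPKM (-0.34 ± 0.060, adjusted p = 0.000376). None of the 3 overlapped its controls. With Foxk2 shRNA it had 9.43 and 8.83 RPKM against 8.19 and 7.06 RPKM (0.25 ± 0.074, adjusted p = 0.0164), a call lost without scrambled control replicate 2 (0.15), without shRNA replicate 1 (0.20), in a fit of the Foxk2 libraries alone and with the trend removed (0.10). Dbp had the fewest overlaps between groups, with 1 of its 7 pairs of neighbours overlapping, as for Per2.

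Some of these genes overlap others in the annotation, and how the counting used strand is not given in the sources used here. Sphk2 covers 539 of the 2993 exon bases of Dbp (18.0%), Thra 263 of those of Nr1d1 (8.55%), D930015M05Rik 295 of those of Cry2 (4.67%) and Gm45355 33 of those of Arntl (0.439%), all on the other strand. Sphk2, named after its values were seen, was not called in the libraries labelled Foxk1 overexpression (0.10) or with Foxk2 shRNA (0.068), and was lower with Foxk1 shRNA (-0.24) and FOXK2 overexpression (-0.24). Thra, named in the same way, was lower in the libraries labelled Foxk1 overexpression (-0.19), higher with Foxk2 shRNA (0.35) and not called with Foxk1 shRNA (0.086) or FOXK2 overexpression (-0.052). No other copy of 100 bases or more at 99% identity was found for the 10 genes.

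The comparisons of one factor were set against those of the other by the difference of their effects. For overexpression 6 of 10 clock genes differed, where 25.1% of all genes did (11.6% higher, 13.5% lower). The effect labelled Foxk1 was below that of FOXK2 for Arntl (-0.41 ± 0.14, adjusted p = 0.0365) and Clock (-0.37 ± 0.076, adjusted p = 0.00234). It was above for Per1 (0.27 ± 0.090), Per2 (0.50 ± 0.096), Per3 (0.28 ± 0.088) and Cry2 (0.44 ± 0.066), with adjusted p between 0.000194 and 0.0379. For Cry1 (-0.28 ± 0.13), Nr1d1 (-0.11 ± 0.093), Nr1d2 (0.11 ± 0.075) and Dbp (0.21 ± 0.096) the difference did not pass (adjusted p between 0.113 and 0.419), and these 4 were called in the same direction in both. For knockdown 4 of 10 differed, against 14.3% of all genes (6.68% higher, 7.63% lower): Clock (0.27 ± 0.076, adjusted p = 0.027), Per2 (-0.60 ± 0.096, adjusted p = 0.000683), Cry2 (-0.31 ± 0.066, adjusted p = 0.00473; -0.20 and not called with the trend removed) and Dbp (-0.59 ± 0.096, adjusted p = 0.00077). Per2 and Dbp were lower with Foxk1 shRNA and higher with Foxk2 shRNA. The differences of Clock, Per2 and Cry2 in overexpression and of Per2 and Dbp in knockdown were kept under every alternative run. Those of Arntl and Per1 in overexpression were lost without 7 of the 10 libraries in turn (adjusted p up to 0.13 and 0.154), that of Per3 without 5 of 10 (up to 0.126) and that of Clock in knockdown without 6 of 10 (up to 0.0894), while that of Cry1 in overexpression was called without Foxk1 empty vector replicate 1 (-0.39) and that of Per1 in knockdown without Foxk1 scrambled replicate 3 (-0.32). In overexpression, that of Arntl was -0.26 and not called with quantile normalization and that of Per1 0.087 and not called with the trend removed. The libraries labelled Foxk1 overexpression carry less Foxk1 RNA than their controls, so no direction here is tied to more FOXK1.

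Within a factor, the Foxk2 comparisons gave 7 genes called in opposite directions (Arntl, Clock, Cry1, Cry2, Nr1d1, Nr1d2 and Dbp) and 1 in the same direction (Per2), where 22.0% of all genes were called in opposite directions and 2.11% in the same direction. Each comparison has its own controls. In the Foxk1 set 3 were called in opposite directions (Per2, Cry1 and Nr1d2) and 1 in the same direction (Dbp), against 21.4% and 3.47% of all genes. Per2, Cry1, Nr1d2 and Dbp had calls in all 4 comparisons, and the share of all genes with as many calls was not counted. Cry1 and Nr1d2 were called in opposite directions to each other each time. Per2 and Dbp were both lower with Foxk1 shRNA and both higher with Foxk2 shRNA.

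**Figure D3:**
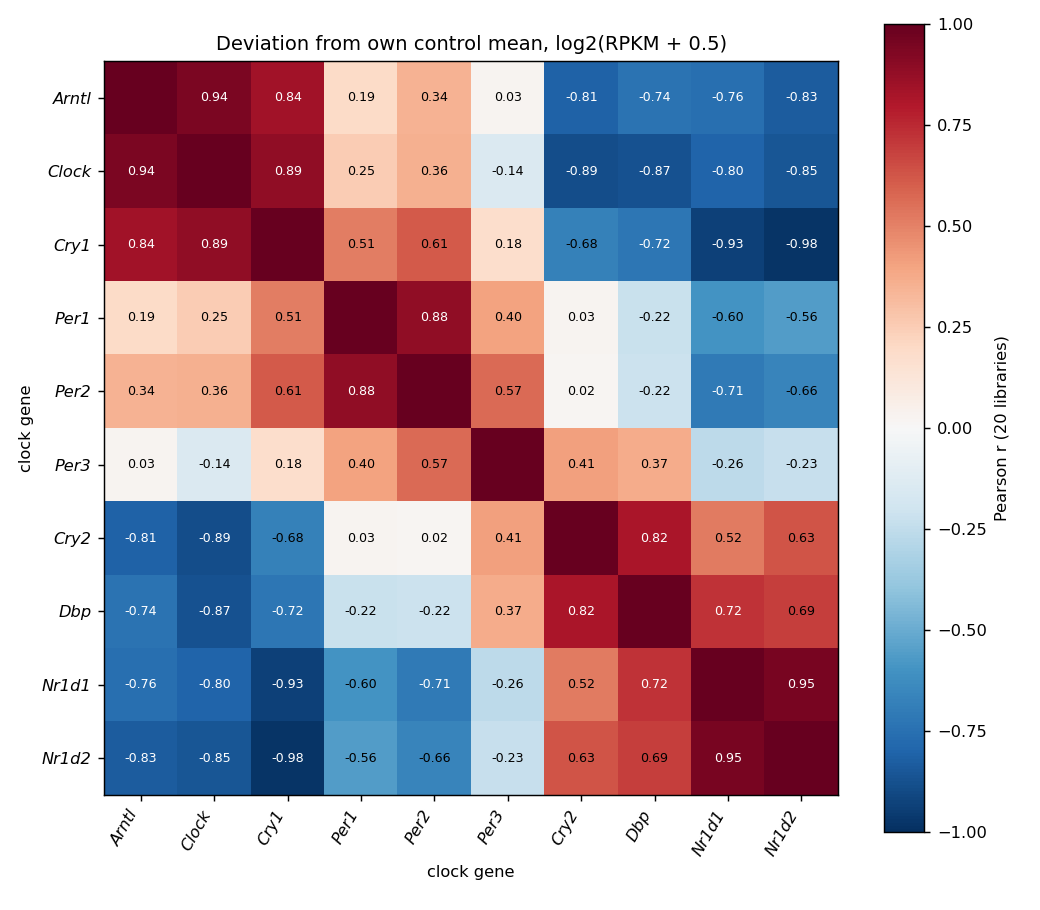
Pearson correlation between clock genes over 20 libraries, of log2(RPKM + 0.5) minus the mean of the library's own control group. The upper left block (Arntl, Clock, Cry1) and the lower right block (Cry2, Dbp, Nr1d1, Nr1d2) are red within and blue between them, and Per1 goes with Per2 (0.88).

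Over the 20 libraries, as deviations from the own control group on the log2(RPKM + 0.5) scale, Arntl went with Clock (r = 0.94) and Clock with Cry1 (0.89). Nr1d1 went with Nr1d2 (0.95) and Cry2 with Dbp (0.82). Cry1 ran against Nr1d2 (-0.98) and Nr1d1 (-0.93), and Clock against Cry2 (-0.89) and Dbp (-0.87). Per1 went with Per2 (0.88), and had r = 0.029 with Cry2. The points share libraries, depth and control means and fall into the 8 groups, so these values describe the groups' order and carry no p. The genes most like Arntl in the same measure, among those with a mean of at least 1 RPKM, were Tipin (0.96), Tmem68 (0.96), Tmem126a (0.96) and Ttc37 (0.96). For Per2 they were Set (0.95), Alkbh5 (0.95), Peg10 (0.95) and Rbm38 (0.95). For Nr1d1 they were Fzd4 (0.98), Cxcl13 (0.98), Slc27a1 (0.98) and Cyp2f2 (0.98), and for Dbp Trafd1 (0.98), Aoc3 (0.97), Plin4 (0.96) and Wnk4 (0.96).

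Of 20 other clock genes listed by role, 16 passed the filter, and Npas2, Hlf, Rorb and Fbxl21 did not. In the libraries labelled Foxk1 overexpression 6 were higher, 3 lower and 7 not called (median 0.068), where 47.8% of all genes were called. With Foxk1 shRNA 3 were higher and 7 lower (median -0.083; 35.9% of all genes called), with FOXK2 overexpression 7 were higher and 5 lower (median 0.095; 45.0%), and with Foxk2 shRNA 2 were higher and 3 lower (median -0.076; 33.7%). The highest change was that of Bhlhe40, which encodes the repressor DEC1, a competitor of BMAL1 and CLOCK at E-boxes. It had 30.3, 31.9 and 32.2 RPKM in the libraries labelled Foxk1 overexpression, against 12.3, 14.7 and 11.9 RPKM in controls (1.25 ± 0.060, adjusted p = 1.7e-10). With FOXK2 overexpression it had 29.5 and 30.3 RPKM against 11.7 and 10.8 RPKM (1.37 ± 0.074, adjusted p = 9.85e-10). It was lower with Foxk1 shRNA, at 8.51, 8.18 and 8.03 RPKM against 16.5, 16.3 and 15.3 RPKM (-0.92 ± 0.060, adjusted p = 1.58e-08). With Foxk2 shRNA it stood at 10.6 and 10.2 RPKM against 11.7 and 11.8 RPKM (-0.17 ± 0.074, adjusted p = 0.093). Its paralogue Bhlhe41 went the other way in both overexpression comparisons (-0.43 labelled Foxk1, -0.84 FOXK2).

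**Figure D4:**
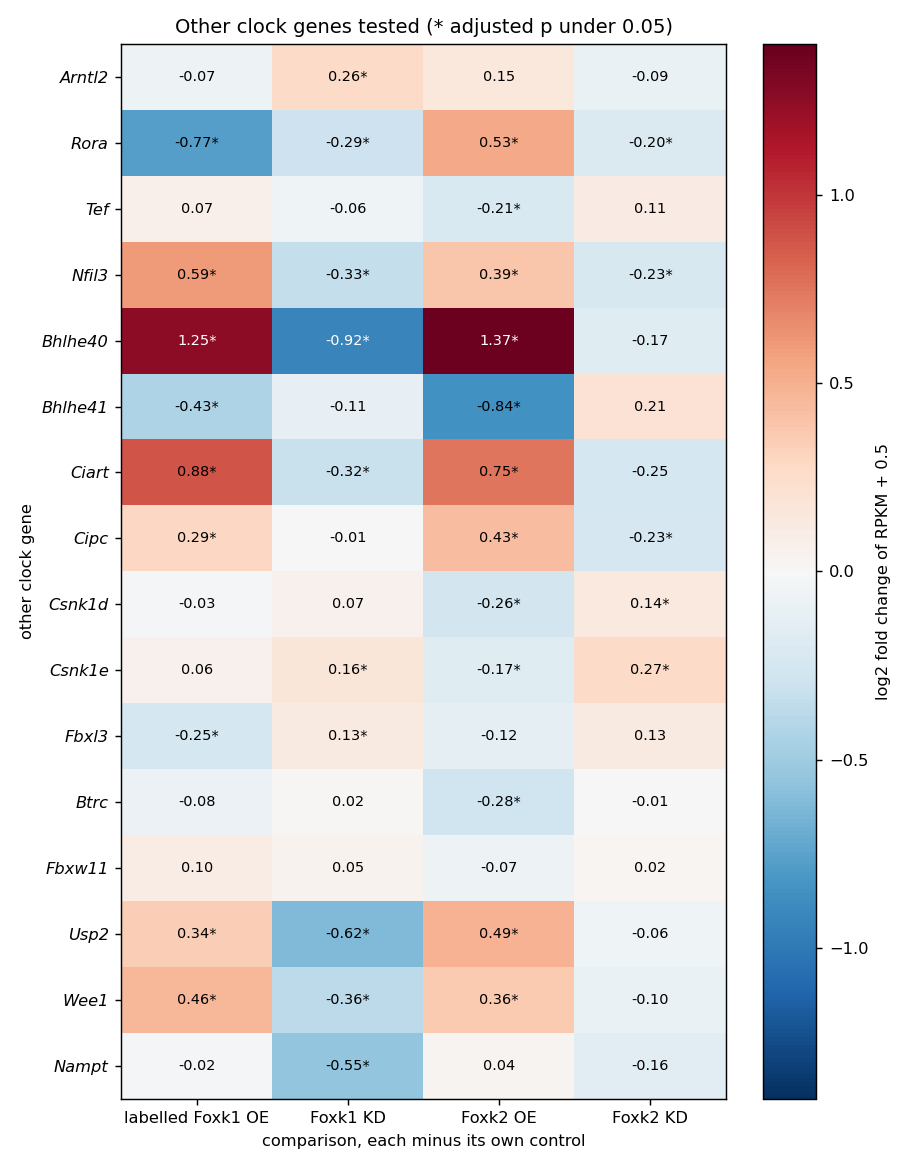
Log2 fold change of RPKM + 0.5 of the 16 other clock genes tested in the 4 comparisons, each manipulation minus its own control. A star marks an adjusted p under 0.05. Bhlhe40 is the darkest row, from -0.92 to 1.37, and Rora changes sign between the overexpression comparisons.

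Further repressors followed Bhlhe40 in the overexpression comparisons. Ciart, which encodes the repressor CHRONO, had 2.18, 1.84 and 2.01 RPKM in the libraries labelled Foxk1 overexpression against 0.943, 0.791 and 0.848 RPKM (0.88), and 1.86 and 1.68 RPKM with FOXK2 overexpression against 0.807 and 0.882 RPKM (0.75). Nfil3 encodes E4BP4, which represses at D-boxes. It was higher in the libraries labelled Foxk1 overexpression (0.59) and with FOXK2 overexpression (0.39), and lower with Foxk1 shRNA (-0.33) and Foxk2 shRNA (-0.23). Cipc, a CLOCK-binding repressor, was higher in both overexpression comparisons (0.29 and 0.43). Rora, which encodes a receptor that activates Arntl, was lower in the libraries labelled Foxk1 overexpression, at 2.31, 2.16 and 2.42 RPKM against 4.10, 4.43 and 4.26 RPKM (-0.77 ± 0.051), and higher with FOXK2 overexpression, at 7.28 and 7.51 RPKM against 5.33 and 4.62 RPKM (0.53 ± 0.063). It was lower in both knockdowns (-0.29 Foxk1, -0.20 Foxk2). The outputs Usp2 and Wee1 were higher in the libraries labelled Foxk1 overexpression (0.34 and 0.46) and with FOXK2 overexpression (0.49 and 0.36), and lower with Foxk1 shRNA (-0.62 and -0.36). Nampt, the enzyme of NAD salvage, was lower with Foxk1 shRNA (-0.55) and not called in the other comparisons. Its control groups differed by more. Nampt was at 77.2 to 80.8 RPKM in the Foxk1 scrambled shRNA controls and at 212 to 241 RPKM in the Foxk1 empty vector controls.

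Clock genes also differed between control groups. The Foxk1 scrambled shRNA controls were lower than the Foxk1 empty vector controls for Clock (-0.27), Per1 (-0.97), Per2 (-0.36), Cry1 (-0.32) and Nr1d1 (-0.44), and higher for Per3 (0.72), Cry2 (0.30) and Dbp (0.51). That is 8 of 10 genes, where 44.8% of all genes were called (28.0% higher, 16.8% lower). Per1 averaged 7.20 ± 0.61 RPKM in the Foxk1 scrambled shRNA controls and 14.5 ± 0.898 RPKM in the Foxk1 empty vector controls (SD, n = 3 each). No effect of a manipulation on Per1 was as large. The Foxk2 scrambled shRNA controls were higher than the Foxk2 empty vector controls for Clock (0.24) and Cry1 (0.34) and lower for Per1 (-0.28), Nr1d1 (-0.39) and Dbp (-0.29), 5 of 10 genes where 18.9% of all genes were called (10.9% higher, 8.05% lower). This count was 1 without scrambled replicate 2, 3 without empty vector replicate 1 and 2 without empty vector replicate 2. The call of Nr1d1 was kept throughout, and those of Cry1 and Dbp were lost in a fit of the Foxk2 libraries alone. That of Cry1 was also lost without any 1 of the 4 libraries (adjusted p between 0.0593 and 0.124). The Foxk2 shRNA differences share these scrambled controls. Clock averaged 7.87 RPKM with Foxk2 shRNA, 9.29 RPKM with scrambled shRNA and 7.76 RPKM with empty vector. Nr1d1 averaged 21.2, 17.9 and 23.6 RPKM in those groups, in the same order, and Dbp 9.13, 7.63 and 9.38 RPKM. Per2 averaged 3.91, 3.09 and 3.36 RPKM and Cry2 14.0, 12.3 and 12.8 RPKM, again in that order. Arntl averaged 1.60, 2.09 and 1.70 RPKM and Per1 23.0, 19.7 and 24.0 RPKM. Cry1 averaged 4.85, 6.91 and 5.34 RPKM and Nr1d2 7.40, 6.26 and 7.05 RPKM. For every clock gene called with Foxk2 shRNA, the shRNA group lay nearer to empty vector than to scrambled shRNA. The shRNA group lay above both for Per2, Cry2 and Nr1d2 and below both for Arntl and Cry1. What else than the construct differed between control groups is not in the labels.

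The Foxk1 set also differed from the Foxk2 set in its controls. As the mean of the 2 control groups of each set, 3 clock genes were higher in the Foxk1 set (Dbp 0.97, Nr1d1 0.50 and Nr1d2 0.34) and 6 lower (Per1 -1.05, Cry1 -0.60, Per2 -0.54, Clock -0.34, Per3 -0.11 and Cry2 -0.10), where 74.9% of all genes were called (41.2% higher, 33.7% lower). Dbp averaged 17.3 RPKM in the Foxk1 controls and 8.50 RPKM in the Foxk2 controls, and Per1 10.9 and 21.8 RPKM, in that order. Arntl did not differ beyond its error (0.00 ± 0.068), but was -0.49 under quantile normalization. The differences of Per3 (lost without 4 of the 10 libraries in turn, with no filter and with a replicate block, adjusted p = 0.179) and Cry2 (lost without Foxk2 empty vector replicate 2, -0.080, and with the trend removed, -0.069) were the least firm, and that of Per3 was 0.027 with the length and GC trend removed. The sets differ in depth and the factor they address, and these cannot be told apart here.

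**Figure D5:**
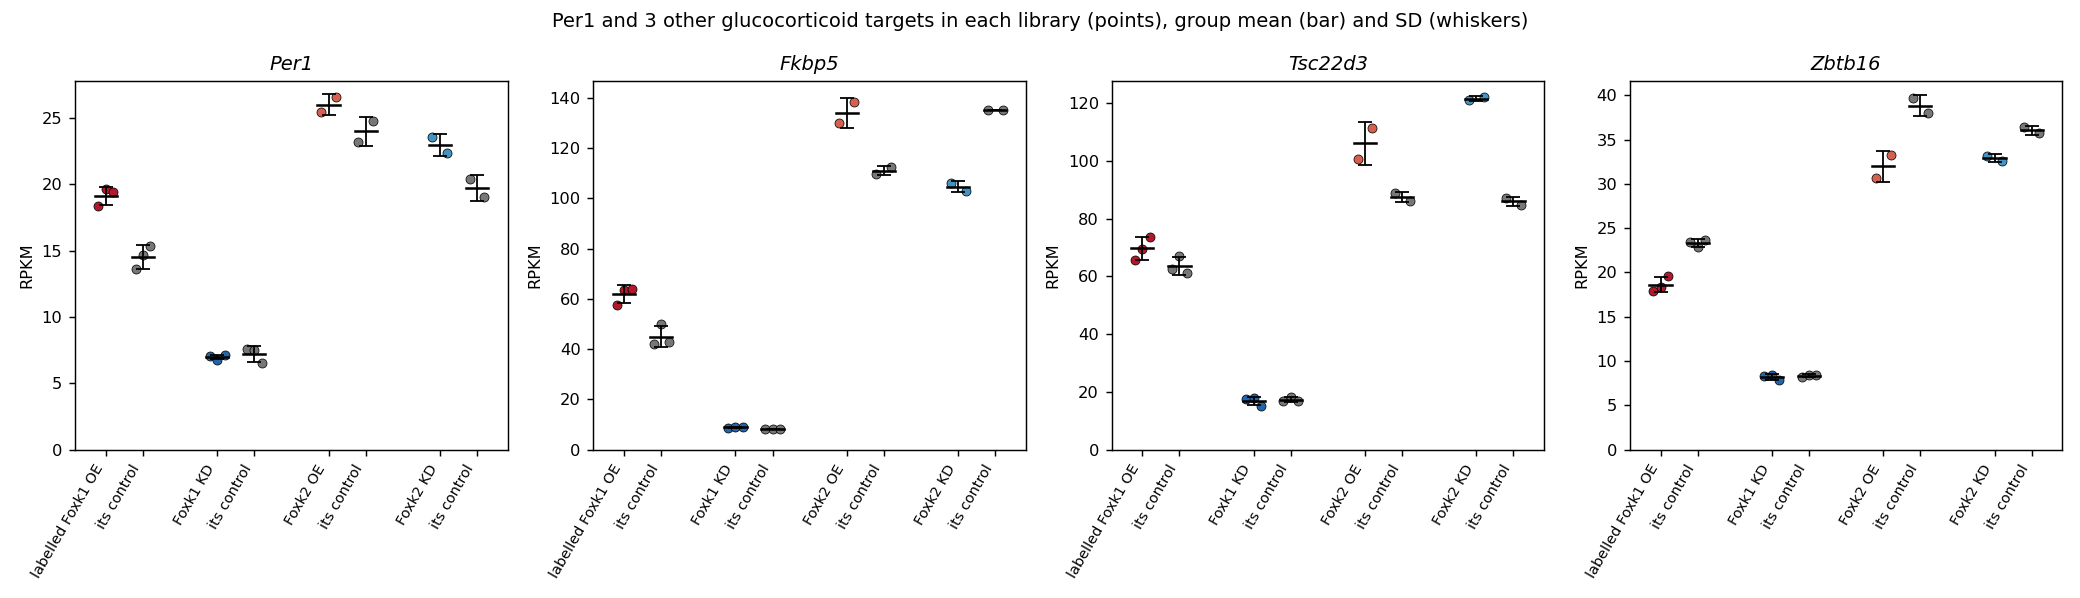
RPKM of Per1 and of 3 other genes known to respond to glucocorticoids in each library (points), with the group mean (bar) and SD (whiskers), each manipulation left of its own control. All 4 genes are lowest in both Foxk1 shRNA groups, treated and scrambled, where Fkbp5 averages 8.90 and 8.11 RPKM. Of the listed genes not shown, Klf9 is lowest there too, but Sgk1 and Dusp1 are not. With Foxk1 shRNA, Sgk1 is at 9.43 to 11.4 RPKM, against 7.40 to 7.80 in the libraries labelled Foxk1 overexpression. Dusp1 is at 10.6 to 11.2 RPKM against 7.29 to 9.24.

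Genes known to be induced by glucocorticoids, Per1 among them, moved with Per1 between the Foxk1 control groups. Fkbp5, which encodes a chaperone of the glucocorticoid receptor, averaged 8.11 RPKM in the Foxk1 scrambled shRNA controls and 45.0 RPKM in the Foxk1 empty vector controls (-2.40). Tsc22d3, which encodes GILZ, averaged 17.2 and 63.6 RPKM (-1.86), Zbtb16 8.35 and 23.3 RPKM (-1.43) and Klf9 39.7 and 73.6 RPKM (-0.88), in the same order. Of the 7 genes listed, 6 were lower, Per1 and Sgk1 included, and Dusp1 was not called, where 16.8% of all genes were lower. The summed level was 91.4 to 96.9 RPKM in scrambled and 230 to 247 RPKM in empty vector controls. Of 7 immediate early genes tested, 5 were higher and 1 lower (median 1.44), where 28.0% of all genes were higher. The other control contrasts differed from this. Between the Foxk2 control groups 1 of the 7 glucocorticoid genes was higher (Fkbp5) and 2 were lower (Per1 and Dusp1). There 10.9% of all genes were higher and 8.05% lower. Between the controls of the 2 sets, all 7 were lower in the Foxk1 set (median -1.06), where 33.7% of all genes were lower. Within the comparisons, where 47.8%, 35.9%, 45.0% and 33.7% of all genes were called, the glucocorticoid list went both ways: 3 higher and 1 lower in the libraries labelled Foxk1 overexpression, 2 higher and 1 lower with Foxk1 shRNA, 3 higher and 2 lower with FOXK2 overexpression, and 4 higher and 3 lower with Foxk2 shRNA. The part of the glucocorticoid list in the Per1 levels was not tested.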

How the data were processed

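The processed table holds RPKM of 48440 genes in 20 libraries, made by the authors with HISAT2 2.1.0, Picard 1.141, featureCounts (Subread 1.5.1) and edgeR on mm10, per the submitters' processing notes; their order, strand setting and handling of duplicates are not given in the sources used here. RPKM values as deposited are normalised to gene length and to the reads assigned, so they are not counts. Symbols, coordinates and exon lengths came from GENCODE M21, which holds 48058 of the IDs with the version dropped and 40606 with it. The IDs of Cry1 and Nr1d2 carry another version than in M21.

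RPKM were tested as log2(RPKM + 0.5) with limma 3.58.1 (R 4.3.3; moderated linear model, mean trend, 8 group means, 12 residual degrees of freedom) on the 15981 genes with at least 0.5 RPKM in 2 or more libraries. P-values are two-sided and adjusted by Benjamini-Hochberg over all of them, and a gene was called at an adjusted p under 0.05. Fold changes are on this scale and understate changes of low genes; ± is an SE there and an SD after a mean in RPKM. Reads were recovered as RPKM × exon length × depth, and 100% of the values above 0 of IDs that matched with version were whole within 0.1 read; 4308 gene lengths were taken from the values. Depth is given in the report; precision is limited by 2 or 3 libraries per group. Alternatives were other filters, pseudocounts, scalings and model samples, a replicate block, voom on recovered reads, each library left out, and a length and GC trend, added after seeing the data. Scripts were tested on simulated data. The clock genes and the other lists were chosen with earlier results of these data known. All 10 clock genes are named in every comparison, the other clock genes where their mean reached 1 RPKM. One gene listed among the other clock genes is not reported here and was left out of their counts.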

Additional observations from a re-analysis of the deposited data

Results flagged for a closer look

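The difference between the effects of the 2 factors passed the test for 6 clock genes in overexpression and 4 in knockdown, each as Foxk1 effect minus Foxk2 effect on the log2 scale (limma, adjusted p under 0.05). In overexpression the values were -0.41 for Arntl, -0.37 for Clock, 0.27 for Per1, 0.50 for Per2, 0.28 for Per3 and 0.44 for Cry2, where the libraries labelled Foxk1 overexpression carry less Foxk1 RNA than their controls. In knockdown they were 0.27 for Clock, -0.60 for Per2, -0.31 for Cry2 and -0.59 for Dbp. Per2 and Dbp were called in opposite directions by the 2 knockdowns. With 2 or 3 libraries per group, no single library could be tested as an outlier.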

How the results depend on the processing

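Over the 10 clock genes, the 4 comparisons and all alternatives, 551 values kept their direction and side of the threshold, 37 lost their call, 10 gained one and 2 changed sign, both of Clock with Foxk1 shRNA and neither called (-0.0085 with quantile normalization, -0.078 with the length and GC trend removed). The number of clock genes called with Foxk2 shRNA was 5 with the length and GC trend removed, an alternative added after seeing the data. By that setting it lost Per1, Per2, Cry2, Nr1d1 and Dbp and gained Per3; the cause was not tested. Leaving out 1 library at a time gave 7 to 8 clock genes in the libraries labelled Foxk1 overexpression, 5 to 6 with Foxk1 shRNA, 7 to 8 with FOXK2 overexpression and 2 to 8 with Foxk2 shRNA. It gave 8 to 8 between the Foxk1 control groups, 1 to 4 between the Foxk2 control groups, 8 to 9 between the sets, 3 to 6 for the difference in overexpression and 3 to 5 for that in knockdown. The difference in overexpression fell to 3 without FOXK2 overexpression replicate 1. Over all genes the counts ran from 6897 to 7219, 5026 to 5149, 5759 to 6237 and 3868 to 4202 in the order of the 4 comparisons above. A group left with 1 library is assumed to vary like the others. Between the sets, Arntl was -0.49 under quantile normalization and Per3 0.027 with the length and GC trend removed, both against the direction given, and Arntl was -0.046 with median-ratio scaling; the first 2 of these settings moved the median of all genes to -0.23 and -0.14. Other values near 0 that were never called also changed sign: Nr1d2 between the Foxk1 control groups (-0.022 with median-ratio scaling, -0.0073 with quantile normalization) and Cry2 between the Foxk2 control groups (0.016 with the trend removed). Leaving out 1 library gave -0.044 to 0.041 for Arntl between the sets, -0.15 to 0.024 for Arntl between the Foxk1 control groups and -0.029 to 0.092 for Per3 between the Foxk2 control groups. Of all calls with Foxk1 shRNA 56.9% were higher, against 46.8% with median-ratio scaling and 43.8% with the trend removed, and with Foxk2 shRNA 53.5% against 40.8% with the trend removed. Same-numbered libraries did not deviate together over all genes (correlations between -0.0858 and 0.0331). In groups of 2 libraries the deviations from the mean mirror each other, so this does not settle whether the numbers pair libraries. In the 4 comparisons the replicate block ended the Foxk2 shRNA call of Arntl (adjusted p = 0.0608) and no other clock gene call, and of the differences between factors it ended those of Arntl (adjusted p = 0.0608) and Per1 (0.0692) in overexpression and of Clock in knockdown (0.0538), and between the sets that of Per3 (0.179), with 7400, 5450, 6999 and 5104 genes called over all. Nr1d2 in overexpression was called with the trend removed (0.24), Per1 in knockdown with quantile normalization (-0.28) or voom (-0.26) and Per3 in knockdown with quantile normalization (-0.26). A fit of 1 factor's libraries cannot give the differences between factors.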
